A study of Homo sapiens with 4 samples.

Results

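The aryl hydrocarbon receptor AHR and 7 genes of its pathway (CYP1A1, CYP1B1, CYP1A2, AHRR, ARNT, TIPARP and ALDH3A1) were examined in 2 breast cancer cell lines treated with JPH203. They are 8 of the 19775 genes on the arrays, and a probe set was taken as a member when its annotation names one of these genes and no other, which gave 18 of 41097 such probe sets. The transcriptomes were measured with 4 Affymetrix U133 Plus 2.0 arrays of total RNA, 1 for each condition. The conditions were MDA-MB-231 cells, a triple negative line, with JPH203 and with Captisol, and T-47D cells, a luminal line that carries estrogen receptor, likewise with each. JPH203 is an inhibitor of LAT1, the transporter of large neutral amino acids encoded by SLC7A5, and was given at 100 μM for 24 h, while Captisol, the modified cyclodextrin used as vehicle, served as control at the same concentration. Each line stands for 1 tumor, and with 1 array per condition no value below has an error, a replicate check or a p-value. Each array averaged a whole culture, so a change in every cell and a change in some of the cells cannot be told apart.

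AHR is a transcription factor that is activated by small ligands, among them polycyclic aromatic hydrocarbons and products of tryptophan such as kynurenine. Without ligand it is kept in the cytosol by HSP90 and its co-chaperones. With ligand it enters the nucleus, pairs with ARNT and binds the xenobiotic response element, whose core is GCGTG. The CYP1 enzymes are the best known products of this pathway and oxidize aromatic hydrocarbons as well as estradiol, which CYP1B1 turns into catechol estrogens. AHRR and TIPARP are also induced by AHR and restrain it in turn.

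Signals were on a linear scale and had been scaled array by array, with trimmed means of 100.02 on each of the 4 arrays to the second decimal. A call needed a ratio of 2 or more, or of 0.5 or less, with both signals of the pair at 100 or above, and a gene was called when any of its probe sets was. All 10 luminal markers were lower on the MDA-MB-231 control array than on the T-47D one by this fold with 100 on either array (1 of the 5 at 100 on both turned after scaling to spike-in transcripts), and the 7 of 10 mesenchymal markers that reached 100 were higher, as their labels have it. With JPH203, 0 of 5 luminal markers measured in MDA-MB-231 cells were called. In the T-47D line ESR1, GATA3 and PGR, 3 of 10, were called lower, where 2.95% of all 6451 genes were. GATA3 was called there through a dimmer probe set alone, at a ratio of 0.469. Its brightest probe set was at 0.781 and its remaining one at 0.595, and neither was called. Poly-A spike-in transcripts, added to RNA before labelling, had a signal with JPH203 of 1.56 times the control in the T-47D line and 0.927 times in MDA-MB-231 cells. The ratio of 3-prime to 5-prime ACTB signal was 1.72 with JPH203 and 1.39 in the control in the T-47D line, and 1.44 and 1.45 in MDA-MB-231 cells. That of GAPDH went the other way in the T-47D line, at 0.867 with JPH203 and 0.940 in the control, and was 1.01 and 0.987 in MDA-MB-231 cells. The part of these differences in the results below was not tested.

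Of the 18 probe sets, 5 reached 100 on all 4 arrays, 2 did so on 2 arrays and 11 on none. CYP1A2, AHRR and ALDH3A1 had no probe set at 100, so that 5 of the 8 genes could be measured on at least 1 array.

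Promoter windows were available for 6 of the 8 genes in the RefSeq table of GRCh38.p14, not for CYP1B1 and ALDH3A1. Those of CYP1A1 and TIPARP are shown because their signals were higher with JPH203 in both lines (for TIPARP in T-47D, not after scaling to the spike-ins), and that of CYP1A2, which lies next to CYP1A1 on chromosome 15 with 0 protein-coding genes between them, because its signals stayed below the minimum. Each runs from 250 bases before the transcription start to 50 after it, 5′ to 3′ along the gene, with matches to the core GCGTG, or to its reverse complement CACGC, in capitals.
CYP1A1, chr15:74725479-74725778, minus strand: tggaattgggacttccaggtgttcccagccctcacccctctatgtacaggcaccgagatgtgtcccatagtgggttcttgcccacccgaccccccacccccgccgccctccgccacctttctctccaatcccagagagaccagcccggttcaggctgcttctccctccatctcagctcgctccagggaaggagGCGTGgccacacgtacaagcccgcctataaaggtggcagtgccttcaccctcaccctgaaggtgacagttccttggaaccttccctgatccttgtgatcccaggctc
TIPARP, chr3:156674340-156674639, plus strand: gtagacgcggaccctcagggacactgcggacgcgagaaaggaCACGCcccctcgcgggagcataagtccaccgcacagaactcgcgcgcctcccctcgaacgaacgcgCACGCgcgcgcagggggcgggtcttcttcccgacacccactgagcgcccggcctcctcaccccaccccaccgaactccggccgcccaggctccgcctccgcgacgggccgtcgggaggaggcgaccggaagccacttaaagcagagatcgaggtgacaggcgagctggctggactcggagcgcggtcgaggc
CYP1A2, chr15:74748595-74748894, plus strand: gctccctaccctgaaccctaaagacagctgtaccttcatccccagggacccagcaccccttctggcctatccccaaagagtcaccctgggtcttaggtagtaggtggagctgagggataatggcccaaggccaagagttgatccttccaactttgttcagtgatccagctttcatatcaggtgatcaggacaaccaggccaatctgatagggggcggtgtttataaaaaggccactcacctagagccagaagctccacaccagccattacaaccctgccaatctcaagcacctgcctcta

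The CYP1A1 window held 1 match, the first of the 3 TIPARP windows held 2 on the reverse strand, and the CYP1A2 window held 0. The other 2 TIPARP windows and the ARNT window held 0, the AHR window held 1 and the 2 AHRR windows held 3 together. A core of 5 bases is common, and 36.5% of all 35116 windows of this length held it on either strand. A match is therefore only a description of the letters in these windows.

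CYP1B1, the extrahepatic P450 enzyme of the pathway, was the member with the clearest response to JPH203, and it responded in MDA-MB-231 cells. On its brightest probe set, 202437_s_at, the signal was 3046 with JPH203, against 1192.5 in the control of the MDA-MB-231 line, and 357 with JPH203, against 323 in the control of the T-47D line. The ratio was 2.55 in MDA-MB-231 cells, the second highest of the 11370 probe sets at 100 or more on both arrays, and 1.10 in the T-47D line.

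The other CYP1B1 probe sets were read apart. Probe set 202435_s_at had signals of 2412 with JPH203 and 1007 in the control in MDA-MB-231 cells, a ratio of 2.40, and of 289 and 276 in the T-47D line, a ratio of 1.05. Probe set 202436_s_at had 2524 and 1079.9 in MDA-MB-231 cells, a ratio of 2.34, and 283.5 and 235.5 in the T-47D line, a ratio of 1.20. These 3 probe sets were thus alike, with log2 ratios that averaged 1.28 ± 0.066 in the MDA-MB-231 line and 0.16 ± 0.10 in the T-47D line (SD over 3 probe sets of the same RNA, not a replicate error). They ranked 2, 5 and 6 from the highest in the MDA-MB-231 line, and between 2953 and 4439 of 10258 in the T-47D line. The fourth probe set, 202434_s_at, was dim on every array, at 19.0 with JPH203 and 4.0 in the control of the MDA-MB-231 line and at 21.9 and 8.9 in the T-47D line, and its ratio was not read. All 4 CYP1B1 probe sets carry the suffix _s_at, which marks probes shared by several transcripts, and without such probe sets CYP1B1 was not measured.

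**Figure D1:**
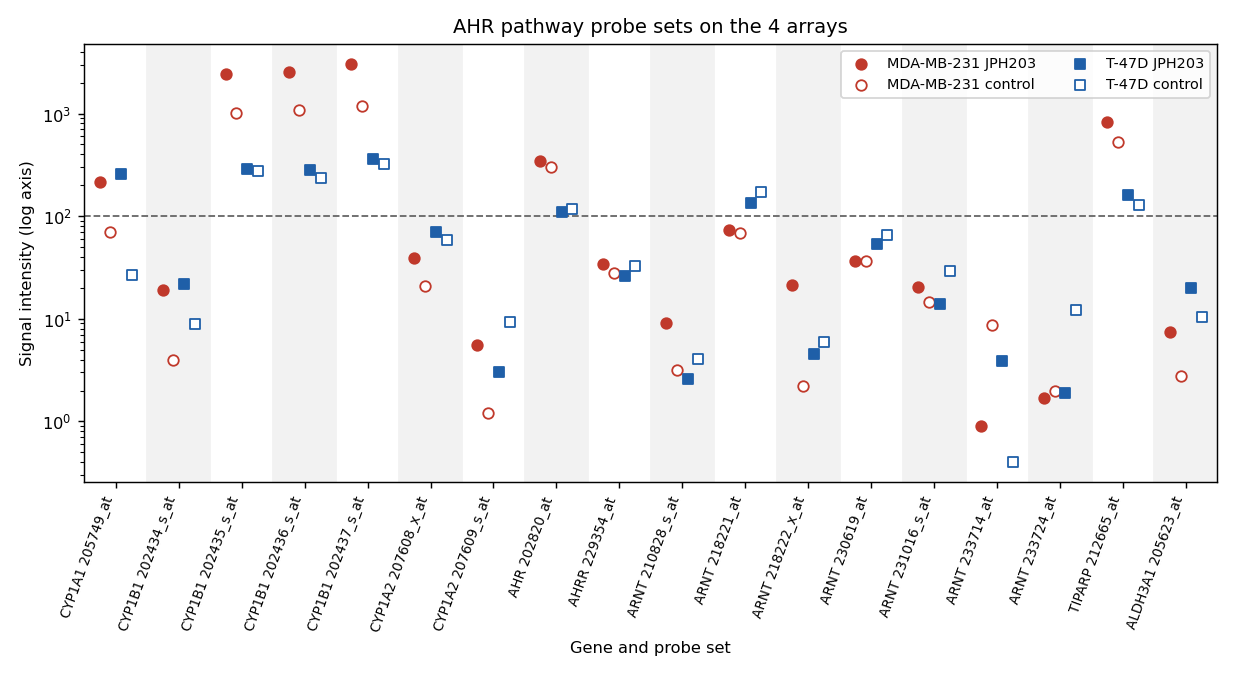
Signal intensity (y axis, log scale) of each of the 18 probe sets of the 8 genes (x axis) on each array, with filled symbols for JPH203 and open symbols for control, red circles for the MDA-MB-231 line and blue squares for the T-47D line. A signal of 100, the minimum, is dashed; CYP1A1 lies above it on both JPH203 arrays (215 and 259) and below it on both control arrays (69.7 and 26.8).

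The log2 ratio of CYP1B1 in the MDA-MB-231 line minus that in the T-47D line was between 0.96 and 1.21 on the 3 bright probe sets, a difference that could not be tested. In MDA-MB-231 cells 95% of all probe sets at the minimum had a ratio between 0.778 and 1.33, and in the T-47D line between 0.501 and 1.97. CYP1B1 therefore lay outside the bulk of ratios in the MDA-MB-231 line and inside it in the T-47D line. With scaling to the spike-ins, the ratio on 202437_s_at was 2.76 in MDA-MB-231 cells, while in the T-47D line it turned to 0.707.

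CYP1A1, the enzyme most often used as a readout of AHR activity, has 1 probe set, 205749_at. Its signal was 215 with JPH203, against 69.7 in the control of MDA-MB-231 cells. The T-47D signals were 259 with JPH203 and 26.8 in the control. In both lines the gene was above the minimum with JPH203 alone, so it was not called by the rule above, and the ratios of 3.09 and 9.68 were not read as sizes. With signals below 100 set to 100, a rule chosen after the values were seen, the ratio was 2.15 in the MDA-MB-231 line and 2.59 in the T-47D line. By that rule 0.0973% of 7195 genes were called higher in the MDA-MB-231 line and 2.51% of 7375 in the T-47D line. CYP1A1 and CYP1B1 were the members called in the MDA-MB-231 line and CYP1A1 the member in the T-47D line, where CYP1A1 entered only through the JPH203 array on which it was high. With this minimum set in, its ratio fell below 2-fold after scaling to the spike-ins in T-47D (1.66). In the MDA-MB-231 line it was close to the threshold, at 2.06 after quantile normalization, and below it, at 1.88, with a pseudocount of 16. The pseudocount also took the T-47D ratio below 2-fold, to 1.72. By the same rule on the deposited signals, the genes called higher in both lines were CYP1A1 and ASNS. ASNS, the asparagine synthetase, was also named after its values were seen. They were 2 of the 7 called higher in the MDA-MB-231 line and of the 185 in the T-47D line (28.6% and 1.08%). CYP1A1 would not be among them with the pseudocount. Where 100 was asked of the higher array alone and the ratio was taken as deposited, BEX2 and MB, named here after their values were seen, joined them, where 0.222% and 3.62% of genes were called higher in MDA-MB-231 and T-47D.

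CYP1A2, mainly a liver enzyme, was below the minimum throughout. Its probe set 207608_x_at had signals of 38.9 with JPH203 and 20.7 in the control of the MDA-MB-231 line, and of 70.3 and 58.4 in the T-47D line. Probe set 207609_s_at had 5.5 and 1.2 in the MDA-MB-231 line, and 3.0 and 9.4 in the T-47D line. No change can be read from these.

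TIPARP, a mono-ADP-ribosyltransferase that acts on AHR, did not reach the 2-fold threshold. Its signal on 212665_at was 825 with JPH203, against 523 in the control of MDA-MB-231 cells, a ratio of 1.58 that ranked 53 of 11370. The T-47D signals were 160 with JPH203 and 128 in the control, a ratio of 1.25 that ranked 2564 of 10258 and turned to 0.802 after scaling to the spike-ins. TIPARP was thus outside the central 95% of ratios in the MDA-MB-231 line and well inside it in the T-47D line.

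AHRR, the repressor that competes with AHR for ARNT, had signals on 229354_at of 33.9 with JPH203 and 27.8 in the control of the MDA-MB-231 line, and of 26 and 33.0 in the T-47D line, all below the minimum. ALDH3A1, an aldehyde dehydrogenase induced by AHR ligands in liver cells, had 7.4 and 2.8 on 205623_at in the MDA-MB-231 line and 19.9 and 10.4 in the T-47D line. Neither gene could be measured here.

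The receptor itself differed little between JPH203 and control. AHR had signals on 202820_at of 346 with JPH203 and 304 in the control of MDA-MB-231 cells, a ratio of 1.14. In the T-47D line it had 110.3 and 117, a ratio of 0.945 that was 1.06 after quantile normalization and 0.605 after scaling to the spike-ins. Both lay within the central 95% of ratios of their line. ARNT, the partner with which AHR binds DNA, reached the minimum on 1 of its 7 probe sets, 218221_at. That probe set had 136 with JPH203 and 172 in the control of the T-47D line, a ratio of 0.788, and 73.2 and 68.7 in MDA-MB-231 cells, below the minimum. The other 6 had signals of up to 64.9 on any array.

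In all, 1 of the 3 members measured on both MDA-MB-231 arrays was called higher with JPH203, where 0.0883% of all 6792 genes were, and 0 of 4 were called in the T-47D line, where 5.49% of all 6451 genes were called in either direction. The 8 genes were chosen with earlier results of these data known, so these counts are a description.

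**Figure D2:**
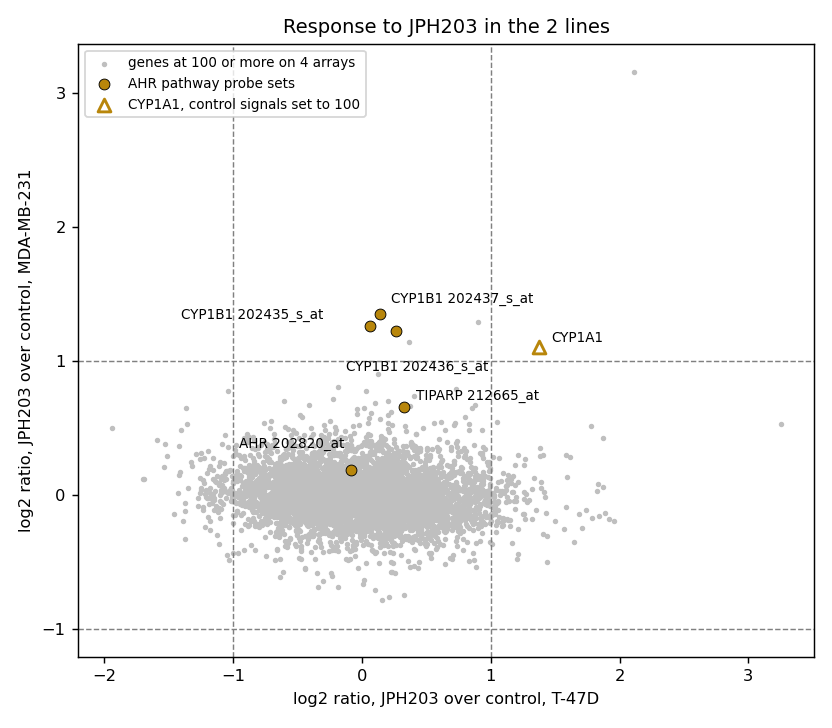
Log2 ratio of JPH203 over control in the T-47D line (x axis) and in the MDA-MB-231 line (y axis), for genes at 100 or more on all 4 arrays (grey, brightest probe set) and for the AHR pathway probe sets (gold circles), with CYP1A1 as an open triangle after its control signals were set to 100. Dashed lines mark 2-fold; the 3 CYP1B1 probe sets lie above the line of the MDA-MB-231 axis alone, and CYP1A1 beyond both lines.

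The control arrays were compared between the lines, where the central 95% of ratios of probe sets at 100 on both ran from 0.238 to 4.35. CYP1B1 had a signal in MDA-MB-231 cells of 3.69 times that in the T-47D line on 202437_s_at, and of 3.65 and 4.59 times on 202435_s_at and 202436_s_at. TIPARP had 4.10 times the T-47D signal in the MDA-MB-231 line, and AHR 2.61 times. These 3 genes were thus higher in MDA-MB-231 cells on 5 probe sets, all of them at 100 or more on both arrays, and 4 of the 5 lay inside that central range, with CYP1B1 202436_s_at outside it. ARNT had 68.7 in MDA-MB-231 cells, below the minimum, and 172 in the T-47D line, and its ratio of 0.399 turned to 1.30 after scaling to the spike-ins. CYP1A1, at 69.7 in the MDA-MB-231 line and 26.8 in the T-47D line, was below the minimum on both.

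All 4 members measured on these arrays were therefore called, but differences between the lines were common, and 52.6% of 8311 genes were called when 100 on 1 of the 2 arrays was enough, with 26.7% of the 8311 higher in MDA-MB-231. Of the members, 3 were called higher and ARNT lower, the last through its T-47D signal alone, and with signals below 100 set to 100 ARNT had a ratio of 0.581 and was not called. The spike-in signal of the MDA-MB-231 control array was 0.307 times that of the T-47D control array. After scaling to it AHR, CYP1B1 and TIPARP stayed higher in MDA-MB-231 cells, at 8.48, 12 and 13.3 times.

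**Figure D3:**
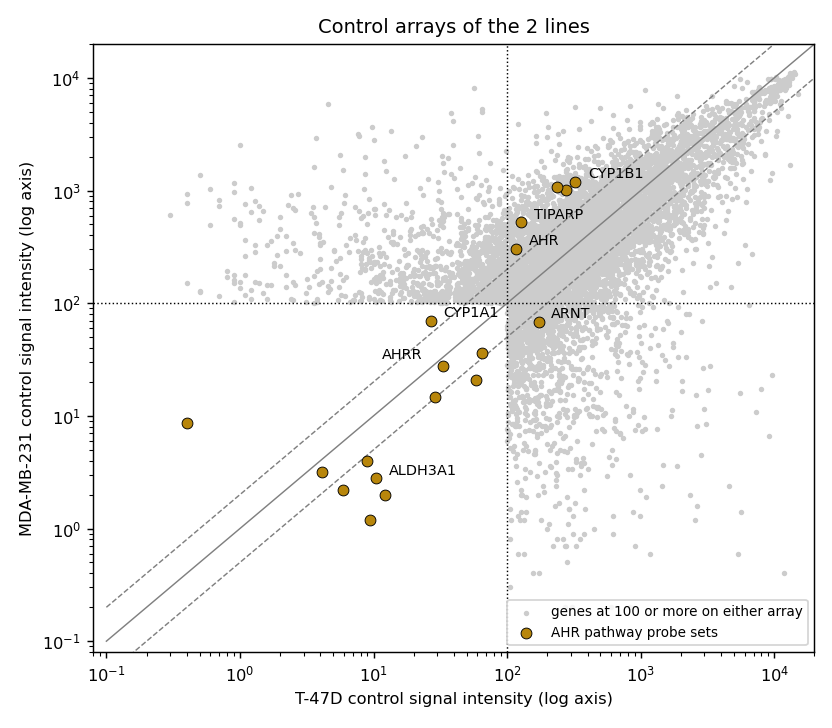
Signal intensity in the T-47D control array (x axis, log scale) and in the MDA-MB-231 control array (y axis, log scale) for genes at 100 or more on either (grey, brightest probe set) and for the 18 AHR pathway probe sets (gold). The solid line marks equal signal, dashed lines 2-fold and dotted lines the minimum of 100. TIPARP, AHR and the 3 bright CYP1B1 probe sets lie above the upper dashed line, with both signals over 100. The dim CYP1B1 probe set, 202434_s_at, does not.

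The surrounding pathway was read from 5 lists and 3 gene families with 131 genes, of which 127 had a probe set naming them alone. Of 34 measured on both MDA-MB-231 arrays and 35 on both T-47D arrays, 0 were called with JPH203, against 0.103% and 5.49% of all genes. In MDA-MB-231 cells this is near the background. With 100 on both arrays, the lists therefore gave no called gene beside the members. Where 100 was asked of the higher array alone, some list genes, named after their values were seen, passed 2-fold in T-47D. ALDH5A1 (0.397), NCOA1 (0.429), ALDH4A1 (0.460) and EP300 (0.473) were lower there and PARP10 (2.47) was higher. So were 9.14% of all 7375 genes, in either direction.

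Of 17 other genes reported as AHR targets, 16 had a probe set and 5 were measured in MDA-MB-231 cells. All 5 had a ratio above 1, from 1.06 to 1.73, with a median log2 ratio of 0.29, where that of all 6757 genes was -0.0066. SLC7A5, which encodes LAT1, had signals of 2024 with JPH203 and 1168 in the control, a ratio of 1.73. NFE2L2, the regulator of antioxidant genes, was at 1.24 and NQO1, a quinone reductase, at 1.22, with 1.32 and 1.37 on its other probe sets. EREG, an EGF receptor ligand, and ABCG2, a drug efflux pump, both named after their values were seen, were at 1.06 and 1.08. These ratios were small, and on the brightest probe sets SLC7A5 alone of the 5 lay outside the central 95% of ratios in these cells.

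On the T-47D arrays 6 of these targets were measured, 4 of them with a ratio above 1, of which 3 fell below 1 after scaling to the spike-ins, and 2 below. The median log2 ratio was 0.23, against -0.022 for all 6413 genes. SLC7A5 had 834 with JPH203 and 502 in the control, a ratio of 1.66 that was 1.06 after scaling to the spike-ins. NQO1 was at 1.34 on its brightest probe set, a value that fell below 1 after quantile normalization and after scaling to the spike-ins. Its other probe sets were at 1.31 and 0.862, while NFE2L2 was at 0.764. All 6 lay within the central 95% of T-47D ratios. SLC7A5 is also known as a gene of the amino acid response.

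Of 10 chaperones, partners and coactivators of AHR, 6 were measured in MDA-MB-231 cells, with ratios from 0.920 to 1.05. On the T-47D arrays 5 were measured, from 0.587 to 1.28. HSP90AA1, which holds AHR in the cytosol, had signals of 7780.3 with JPH203 and 8287 in the control of MDA-MB-231 cells, a ratio of 0.939, and of 7567 and 7721 in the T-47D line, a ratio of 0.980. Its other probe sets were at 0.863 to 0.980 in MDA-MB-231 and 0.829 to 0.928 in T-47D, and the T-47D ratio of 0.980 was 0.627 after scaling to the spike-ins. PTGES3, the co-chaperone p23, was at 0.944 and 1.28, the second of which fell below 1 after quantile normalization, loess and scaling to the spike-ins.

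Kynurenine is an AHR ligand. Of 13 listed enzymes of tryptophan and kynurenine metabolism, 2 were measured in the MDA-MB-231 line and 4 in the T-47D line. The 2 in MDA-MB-231 cells were at 1.05 both. In the T-47D line KYAT3, a kynurenine aminotransferase, had 1049.5 with JPH203 and 642 in the control. Its ratio of 1.63 was 1.05 after scaling to the spike-ins. KYNU, kynureninase, had 1828 and 2905 in that line, a ratio of 0.629 that was 0.403 after that scaling. Its other probe sets at the minimum were at 0.607 and 0.630. TDO2, IDO1 and IDO2, the enzymes that start the pathway, named after their values were seen, were not at 100 on any array.

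The wider families of the members held no gene called with 100 on both arrays. Of the 44 other P450 genes measured by a probe set of their own, 2 were at 100 on both arrays in each line, among them CYP2R1, a vitamin D hydroxylase, with ratios of 0.857 in the MDA-MB-231 line and 1.51 in the T-47D line, the second of which fell below 1 after scaling to the spike-ins. No other P450 gene at the minimum on both arrays was called in either line. Of the other aldehyde dehydrogenases, 6 in MDA-MB-231 cells ranged from 0.925 to 1.27 and 7 in the T-47D line from 0.636 to 1.40. Of the other PARP genes, relatives of TIPARP, 5 ranged from 0.908 to 1.10 in the MDA-MB-231 line and 4 from 0.629 to 1.16 in the T-47D line, with PARP1 at 0.949 and 0.629. Of the factors of the same bHLH-PAS family as AHR and ARNT, 4 ranged from 0.925 (HIF1A) to 1.45 (EPAS1, encoding HIF-2α) in the MDA-MB-231 line, and the 2 measured in T-47D, the same genes, were at 0.817 and 0.590. Of the genes that serve P450 enzymes, CYB5A, cytochrome b5, was at 1.07 in the MDA-MB-231 line and 1.28 in the T-47D line (0.816 after scaling to the spike-ins), and CYB5R3, its reductase, at 1.04 and 0.551.

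**Figure D4:**
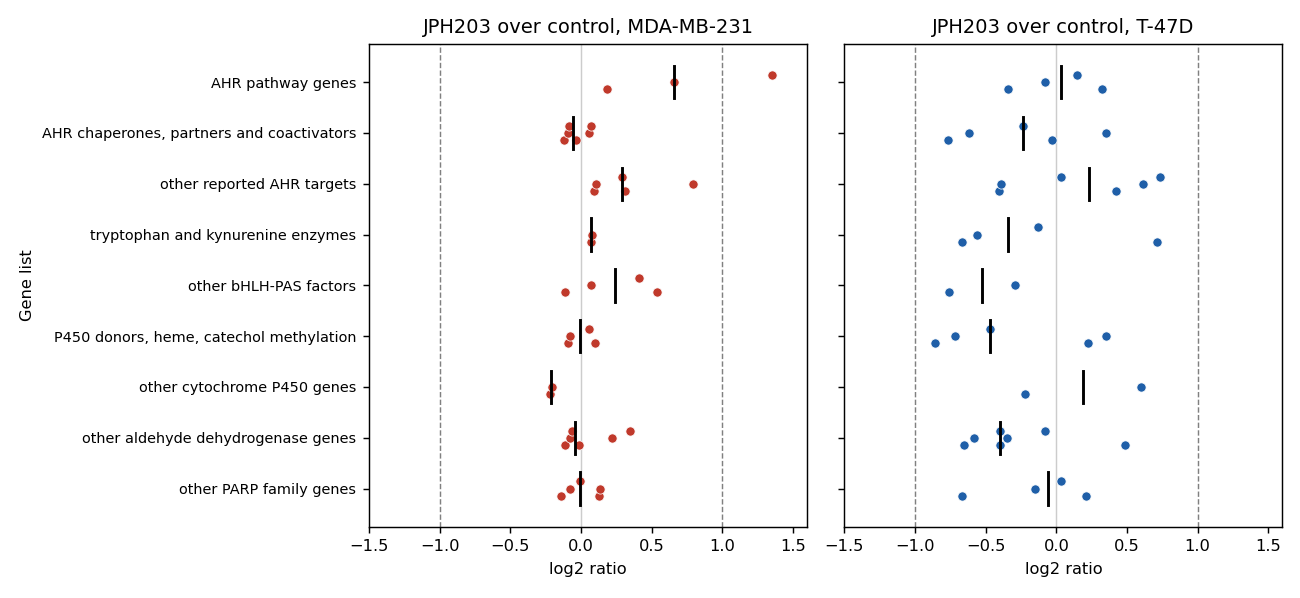
Response to JPH203 as log2 ratio to control (x axis), MDA-MB-231 in red on the left and T-47D in blue on the right, for the genes of each list (y axis) at 100 or more on both arrays, each point being the brightest probe set of 1 gene. Black bars are list medians and dashed lines mark 2-fold; CYP1B1 in MDA-MB-231 cells, at 1.35, is the point beyond them.

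Last, the genes whose pattern was most like that of CYP1B1 were sought among 5274 genes at 100 or more on all 4 arrays. Likeness was the largest difference from CYP1B1 over 3 log2 ratios, JPH203 over control in each line and MDA-MB-231 over T-47D in the controls, so that it rests on 4 arrays. The closest was SLC7A5, at 0.66, followed by TIPARP at 0.70, PSAT1, an enzyme of serine synthesis, at 0.76, MYL12A, a myosin light chain, at 0.81 and UPP1, a uridine phosphorylase, at 0.81. For comparison, the SD of all log2 ratios was 0.198 in the MDA-MB-231 line, 0.513 in the T-47D line and 1.04 between the controls. PSAT1 had 2739 with JPH203 and 1121.5 in the control of the MDA-MB-231 line, and 361 and 193 in the T-47D line.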

How the data were processed

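For each probe set the authors deposited a signal intensity on a linear scale, from 1 array per condition. The submitters' processing notes name GCOS, the Affymetrix array software. Its version and settings are not given in the sources used here. Detection calls were not analysed here. Of 54675 probe sets, 41097 are annotated with 1 gene, 1801 with several and 11777 are unnamed here. Gene identifiers of 41043 were matched to RefSeq (GRCh38.p14), with 0 symbols changed. Members and lists were chosen with earlier results of these data known. Text genes were the members, up to 3 per list for the control arrays, list genes called with JPH203 or else the 2 brightest, and the 5 nearest CYP1B1. Others are marked as named after their values were seen. Each gene is represented by its brightest probe set (mean log2 signal) unless another is named. A gene was called when any of its probe sets was. Under other scalings the minimum was kept on the deposited signals. The scalings were median centring, quantile normalization, loess (span 0.4) and the mean log2 signal of 24 poly-A spike-in probe sets, beside a pseudocount of 16, other minimums, thresholds and choices of probe set. The calling was tested on simulated data. The number of arrays limits the precision. Software was numpy 2.4.6, pandas 2.3.3, statsmodels 0.14.6 and matplotlib 3.10.9 under Python 3.11.15.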

Additional observations from a re-analysis of the deposited data

Results flagged for a closer look

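AHR had signals of at least 100 on all 4 arrays and had ratios on opposite sides of 1 in the lines, with a log2 ratio of JPH203 over control of 0.19 in the MDA-MB-231 line and -0.081 in the T-47D line. The difference of 0.27 was not tested, and after quantile normalization the T-47D ratio was 1.06, on the same side as in MDA-MB-231 cells.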

How the results depend on the processing

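No paired analysis was possible because each condition has 1 array. Median centring, quantile normalization, loess and the pseudocount left the number of called members as reported in each comparison (1 in MDA-MB-231 cells, 0 in T-47D cells and 4 between the controls). Called members in MDA-MB-231 cells were 2 at a minimum of 50, 5 with no minimum, 2 at 1.5-fold (with TIPARP), 0 at 3-fold, 0 without _x_at and _s_at probe sets, since all of CYP1B1 is _s_at, and 2 under both rules added after the data were seen (signals below 100 set to 100, and 100 on the higher array alone). In T-47D cells they were 4 with no minimum and 1 (CYP1A1) under each added rule. Between the controls they were 6 at a minimum of 50, 3 at 200, 7 with no minimum and 2 at 3-fold. They were also 3 with the mean of all probe sets, and 3 without _x_at and _s_at probe sets, where CYP1B1 was not measured. Over all genes, the 7 calls in MDA-MB-231 cells became 11 with spike-in scaling, 17 at a minimum of 50, 4 at 200, 8306 with none, 90 at 1.5-fold, 1 at 3-fold, 3 without _x_at and _s_at probe sets and 23 with 100 on the higher array alone. The 354 in T-47D cells became 1900, 588, 217, 9795, 1842, 28, 215 and 674 in the same order, and 156 with the mean of all probe sets. The 4373 between the controls became 13312 with no minimum, 2716 at 3-fold and 2538 with the mean of all probe sets. Calls in T-47D cells were 165 higher and 190 lower as deposited, 176 and 115 after quantile normalization, 210 and 132 after loess and 20 and 1880 with spike-in scaling. In MDA-MB-231 cells they were 6 and 1 as deposited and 11 and 0 with spike-in scaling. Between the controls they were 2217 and 2177 as deposited and 5930 and 613 with spike-in scaling. That scaling moved the median log2 ratio to 0.10 in MDA-MB-231 cells, -0.66 in T-47D cells and 1.74 between the controls, and it reversed the ratio of ARNT between the controls (1.30, against 0.399 as deposited), which left 3 called members there. The ratios of the 5 probe sets at 100 on all 4 arrays stayed on their side of 2-fold under the scalings and the pseudocount, while ratios of dim member probe sets moved across it and were not read.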

Other observations

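KYNU, which cleaves kynurenine, had control signals of 26.5 in MDA-MB-231 cells, below the minimum, and 2905 in the T-47D line. KMO, which hydroxylates it, and QPRT, which leads on to NAD, both named after their values were seen, had 10.4 and 21.5 in the MDA-MB-231 line and 273 and 995 in the T-47D line. These were the 3 called of 5 tryptophan and kynurenine enzymes measured, where 52.6% of all genes were called. All 3 passed the minimum through their T-47D signal alone. They stayed lower in MDA-MB-231 cells after scaling to the spike-ins. With JPH203, KYNU had 30.9 in MDA-MB-231 cells and 1828 in the T-47D line.

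HIF1A, which also pairs with ARNT, had a control signal of 3981 in the MDA-MB-231 line and 1233 in T-47D, a ratio of 3.23 that was 10.5 after scaling to the spike-ins, while EPAS1 had 525 in the MDA-MB-231 line and 2051 in the T-47D line, a ratio of 0.256 that was 0.833 after that scaling. CYB5A, which passes electrons to P450 enzymes, had 467 in the MDA-MB-231 line and 2940 in the T-47D line, a ratio of 0.159 that was 0.516 after scaling to the spike-ins. ALAS1, which starts heme synthesis, had 427 and 917, a ratio of 0.465 that turned to 1.51 after that scaling. NQO1 had 2850 in the MDA-MB-231 line and 5897 in the T-47D line, a ratio of 0.483 that turned to 1.57. Its other probe sets were at 0.410 and 0.806. Of the genes in this paragraph CYB5A alone lay outside the central 95% of control ratios (0.238 to 4.35), and 52.6% of all genes were called.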
